A study of Mus musculus with 12 samples.

Results

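Genomic imprinting silences 1 parental copy of a gene, so that only the maternal or the paternal allele is transcribed, and the marks that do this are laid down as DNA methylation in the germ line. Many imprinted genes act on fetal growth, and paternally expressed genes such as Igf2 and Dlk1 and maternally expressed genes such as H19 and Cdkn1c are known for opposing roles in it. In the liver Igf2, H19 and Dlk1 are abundant before birth, are turned down afterwards and are known to be expressed again in hepatoblastoma (HB). TPM gives the sum of both alleles, so imprinting itself was not measured here.

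In a murine HB cell line, 10 imprinted growth genes of the 45706 genes listed were examined. They were Dlk1, Meg3, Rian and Mirg of the imprinted domain on chromosome 12, H19, Igf2 and Cdkn1c of distal chromosome 7, and Peg3, Mest and Plagl1 from other domains. The set was chosen by gene name after Dlk1 and H19 had been seen to be much lower in sorted than in unsorted cells of these same libraries, so the sorted-unsorted levels of the members are given below as a description, with no test. All 10 were found in the table, and 9 passed the filter on low levels (an average of 0.1 TPM or more across libraries), Mirg being the exception.

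The cells were BN1-Tie2-EGFP, an immortalized HB line labelled Cdkn2a KO in every group, from a tumor of FVB/N mice driven by the B (β-catenin) and N (NRF2) mutants, and carrying EGFP behind the endothelial Tie2/Tek promoter in a pool of stable clones. UN cells were unsorted and normoxic (21% O2), and UH cells were unsorted and held at 1% O2 for 2 days. SN cells were EGFP+ cells sorted after hypoxia and expanded for about 10 days at 21% O2, and SH cells were the same population put back into 1% O2 for 2 days. Each group had 3 libraries of a single line, nothing states that they came from separate sorts or cultures, and p-values therefore measure the spread between these libraries only. The SN and SH groups differ from UN and UH in the sort, in the earlier hypoxia and in the time of expansion, which cannot be told apart.

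The authors deposited TPM (a share of all transcripts in the library, per transcript length, that sums to 1000000) from a poly(A) library, without counts, so depth is unknown and neither counting intervals nor detection floors can be given. Each library had 18901 to 22369 genes above 0, and Pearson's r across genes within a group lay between 0.977 and 0.991. UN replicate 1 stood apart from the other UN libraries, with r of at most 0.978 to them. Of 9 members tested, 2 (Dlk1 and Cdkn1c) were lower in UN replicate 1 than in both other UN libraries by more than 1 on the log2(TPM + 1) scale, which was also so for 2.14% of all genes tested. The HB label could be checked only in part against 10 hepatocyte and hepatoblast markers. Krt18 averaged 93.4, 79.6, 126.1 and 128.0 TPM in UN, UH, SN and SH, and Krt8 65.5, 37.8, 4.78 and 10.8 TPM. Afp averaged 1.83, 1.22, 9.20 and 5.08 TPM and Hnf4a 3.85, 0.161, 0.263 and 0.108 TPM in the same order, so that Krt8 and Hnf4a were lower and Afp higher in SN than in UN. Alb, Apoa1, Apoa2, Ttr, Epcam and Serpina1a stayed under a mean of 3 TPM in every group, and the summed level of the list overlapped between all 4 groups. The summed level of the 8 fibroblast markers was lower in sorted cells, lying between 1013 and 4314 TPM in UN, 4547 and 6807 in UH, 165 and 185 in SN and 41.1 and 65.4 in SH libraries. The 3 collagens and Pdgfra carried the difference (mean Col1a1 704 TPM in UN and 6.66 in SN, mean Pdgfra 141.5 and 1.59). Dcn (172.1 and 119.1) and Pdgfrb (44.7 and 43.8) overlapped between UN and SN, with UN replicate 1 raising both UN means. Dcn was at 348.9, 86.2 and 81.3 TPM in UN and 115.6 to 125.8 in SN. Pdgfrb was at 74.6, 31.1 and 28.4 TPM in UN and 40.3 to 47.7 in SN. In hypoxia both were lower in SH than in UH without overlap (mean Dcn 25.4 and 53.8, mean Pdgfrb 6.08 and 15.2). Lum and Thy1 averaged under 0.3 TPM in every group. The 8 endothelial markers summed to between 0.290 and 0.740 TPM in UN, UH and SN libraries and between 1.74 and 2.14 in SH, where Vwf averaged 1.26 TPM. The 6 leukocyte markers summed to between 9.81 and 72.3 TPM with the highest sums in SH cells. Cd68 (mean 53.9 TPM) made up most of the SH sums, and Cd74 (8.15) was also highest there. Csf1r was highest in UH (7.21) and Lyz2 in UN (1.26), while Ptprc and Adgre1 averaged under 0.1 TPM in every group. The part of these markers in the levels below was not tested, and in such bulk libraries fewer cells of a type and less RNA per cell cannot be told apart.

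Both host transcripts of the H19-Igf2 pair carry a microRNA, and the 4 mature forms are shown because they lie inside H19 and Igf2, both among the 3 members with the largest sorted-unsorted differences. Sequences are from RefSeq, 5′ to 3′, with the seed (bases 2 to 8) in capitals. Both miR-675 forms lie in exon 1 or 2 of 3 of the 7 annotated H19 transcripts, and miR-483 lies inside Igf2 but in no exon of its 9 transcripts. None of the 4 seeds is shared, and poly(A) libraries do not measure mature microRNAs.
mmu-miR-675-5p (chr7:142577112-142577133, minus strand, GRCm38): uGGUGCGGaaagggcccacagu
mmu-miR-675-3p (chr7:142577078-142577099, minus strand, GRCm38): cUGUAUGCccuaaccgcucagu
mmu-miR-483-5p (chr7:142654968-142654989, minus strand, GRCm38): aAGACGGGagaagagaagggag
mmu-miR-483-3p (chr7:142654932-142654952, minus strand, GRCm38): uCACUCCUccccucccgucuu

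Promoter windows (250 bases before to 50 after a start site, RefSeq on GRCm38.p6) were held for 8 of the 10 members, 14 windows in all, with no entry for H19 and Cdkn1c. They are shown for Dlk1 and Igf2, the members with the largest sorted-unsorted differences, and for Peg3, the member called lower with hypoxia in both populations. Capitals mark ACGTG, the core letters of the element bound by hypoxia-inducible factors, read on both strands (CACGT on the printed strand is a match on the other). The motif was in 3 of the 14 member windows (the only window of Dlk1 and of Plagl1, and 1 of the 4 of Igf2), against 19.6% of 32851 windows of the same length. The other 3 Igf2 windows and the Peg3 window held no match, which says only that these letters are not in them. The Igf2 window printed is the one with the match.
Dlk1 (chr12:109452573-109452872, plus strand, 9 CpG dinucleotides): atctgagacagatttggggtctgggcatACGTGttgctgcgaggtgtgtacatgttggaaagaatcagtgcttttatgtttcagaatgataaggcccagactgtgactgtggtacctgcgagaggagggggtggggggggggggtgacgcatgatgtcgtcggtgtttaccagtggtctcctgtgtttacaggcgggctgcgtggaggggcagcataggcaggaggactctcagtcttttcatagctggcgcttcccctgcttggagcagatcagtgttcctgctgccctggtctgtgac
Igf2 (chr7:142658755-142659054, minus strand, 24 CpG dinucleotides): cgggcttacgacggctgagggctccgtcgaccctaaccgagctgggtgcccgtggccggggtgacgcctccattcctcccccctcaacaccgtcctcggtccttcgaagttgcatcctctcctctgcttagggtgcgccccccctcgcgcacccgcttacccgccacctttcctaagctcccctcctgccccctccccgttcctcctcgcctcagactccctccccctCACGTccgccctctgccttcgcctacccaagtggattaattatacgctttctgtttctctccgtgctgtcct
Peg3 (chr7:6730370-6730669, minus strand, 13 CpG dinucleotides): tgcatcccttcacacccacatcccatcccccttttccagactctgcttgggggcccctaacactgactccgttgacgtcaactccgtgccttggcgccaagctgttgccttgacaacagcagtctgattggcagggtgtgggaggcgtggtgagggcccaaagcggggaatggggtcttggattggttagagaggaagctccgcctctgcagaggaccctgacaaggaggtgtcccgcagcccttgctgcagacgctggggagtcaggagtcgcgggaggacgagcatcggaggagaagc

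Dlk1 (delta-like non-canonical Notch ligand 1, a membrane protein of fetal liver and preadipocytes) sits at chr12:109452823-109463336 on the plus strand of GRCm38. Its TPM was 13.5, 83.8 and 78.7 in the UN libraries, 80.4, 81.9 and 74.9 in UH, 0.270, 0.301 and 0.596 in SN and 1.27, 1.61 and 0.559 in SH. All 6 unsorted libraries were above all 6 sorted libraries, and UN replicate 1 was far below the other unsorted libraries. Mean TPM was 151-fold higher in UN (58.7 ± 39.2, SD, n = 3) than in SN (0.389 ± 0.180, SD, n = 3), and 69.0-fold higher in UH (79.1 ± 3.72, SD, n = 3) than in SH (1.15 ± 0.536, SD, n = 3). The order of levels was UH, UN, SH, SN, and neither UH and UN nor SH and SN were separated, since the libraries of each pair overlapped.

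Meg3, Rian and Mirg, the maternally expressed noncoding RNAs that lie downstream of Dlk1 and host small RNAs, were near the bottom of the measured range in every group. Meg3 starts 77.7 kb from the end of Dlk1 and reached 0.579 TPM at most in UN, 0.679 in UH and 0.125 in SN, and in SH it was listed at 0 in 2 libraries and at 0.00430 TPM in the other. The UH libraries of Meg3 (0.679, 0.636 and 0.654 TPM) were all above the UN libraries (0.379, 0.0633 and 0.579 TPM). Rian was between 0 and 0.581 TPM in the 12 libraries. Mirg was listed at 0 in 5 of them and was highest, at 0.486 TPM, in SH replicate 1.

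The window from Dlk1 to Dio3 on chromosome 12 spans 828.3 kb and holds 118 annotated genes, of which 104 were in the table. Of its 94 small RNAs 93 were listed at 0 in every library, and the exception, Mir433, was above 0 only in SH replicate 2 (3.03 TPM). Of the 10 other genes in the table only Dlk1 and Dio3, which encodes the deiodinase that inactivates thyroid hormone, had a mean of at least 1 TPM over the 12 libraries. Dio3 was at 15.2, 36.9 and 34.5 TPM in UN, 1.35, 1.25 and 1.30 in UH, 6.66, 7.45 and 5.17 in SN and 0.190, 0.191 and 0.391 in SH. Both ends of the domain were thus lower in sorted than in unsorted cells at the same oxygen level, but Dio3 was lower at 1% O2 in both populations, while the Dlk1 libraries at the 2 oxygen levels overlapped.

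**Figure D1:**
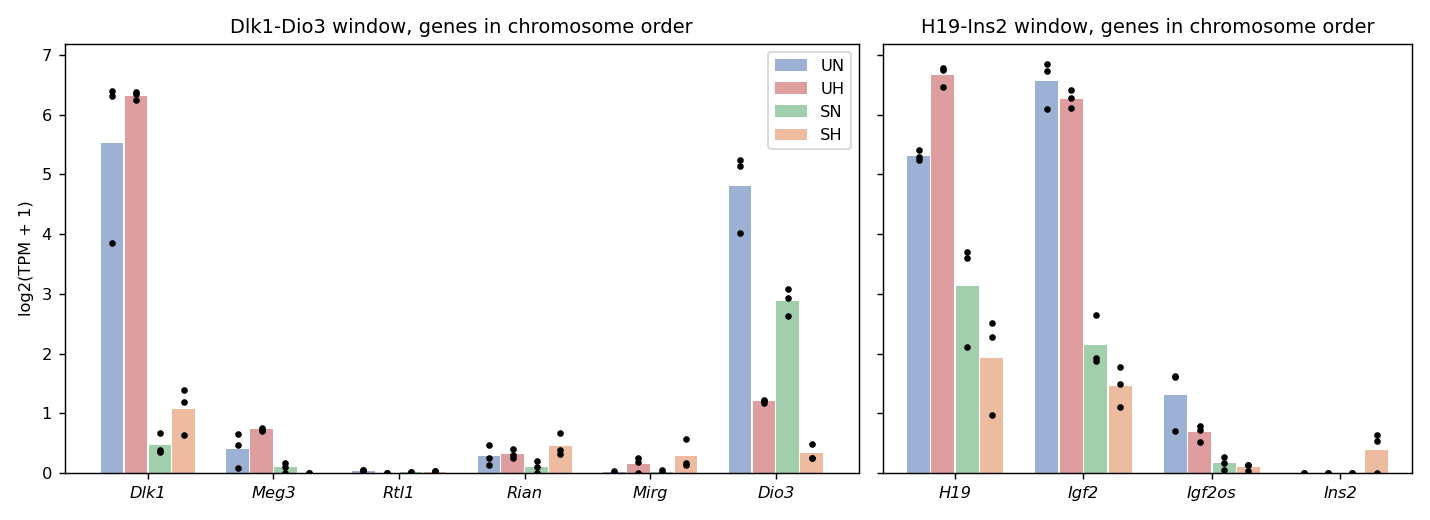
Levels, as log2(TPM + 1), of genes of the Dlk1-Dio3 window (left) and the H19-Ins2 window (right) in chromosome order, with bars for the group mean of 3 libraries and points for the libraries. Dlk1 and Dio3 stand at the ends of the window, the 4 genes plotted between them stay under 1 TPM in every library, and the sorted groups are low for Dlk1, H19 and Igf2.

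H19, a maternally expressed noncoding RNA known as a marker of fetal liver, lies at chr7:142575529-142578143 (minus strand), 72.6 kb from Igf2, with which it is known to share enhancers and a methylated control region. H19 was at 36.7, 41.6 and 38.1 TPM in UN, 87.6, 108.9 and 106.8 in UH, 11.1, 12.1 and 3.30 in SN and 3.87, 4.69 and 0.959 in SH. The unsorted groups were separate from each other and above all sorted libraries, while SN and SH overlapped through SN replicate 3. Mean TPM was 4.40-fold higher in UN (38.8 ± 2.50, SD, n = 3) than in SN (8.82 ± 4.80, SD, n = 3) and 31.8-fold higher in UH (101.1 ± 11.7, SD, n = 3) than in SH (3.18 ± 1.96, SD, n = 3).

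Igf2, the fetal insulin-like growth factor, lies at chr7:142650766-142666816 (minus strand). It was at 67.4, 113.8 and 106.0 TPM in UN, 76.5, 68.6 and 84.4 in UH, 2.82, 2.66 and 5.22 in SN and 2.44, 1.15 and 1.81 in SH. Here the UN and UH libraries overlapped, and every SH library was below every SN library. Mean TPM was 26.9-fold higher in UN (95.7 ± 24.8, SD, n = 3) than in SN (3.56 ± 1.44, SD, n = 3) and 42.5-fold higher in UH than in SH. Igf2os, which is annotated antisense to Igf2, averaged 1.58 TPM in UN, 0.604 in UH, 0.119 in SN and 0.0690 in SH, and since it is not stated whether strand was used in counting, its reads and those of Igf2 cannot be told apart with certainty. Ins2, the insulin gene beyond Igf2, was above 0 only in SH replicates 1 and 3 (0.552 and 0.449 TPM).

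The balance of the pair differed between UN and UH cells. The ratio of Igf2 to H19 TPM was 1.84 to 2.78 in UN and 0.630 to 0.874 in UH, and these ranges did not overlap. In sorted cells it spread from 0.220 to 1.58 in SN and from 0.246 to 1.88 in SH, with the third replicate the highest of each group.

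**Figure D2:**
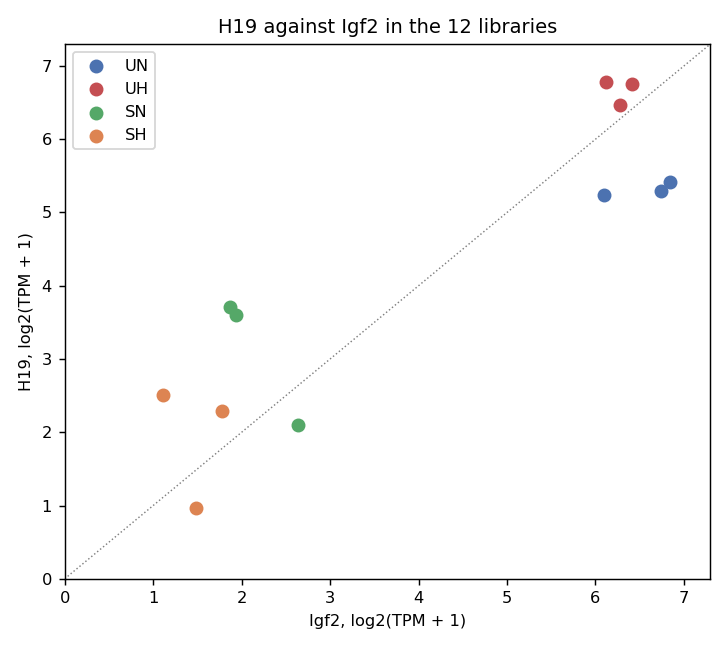
H19 plotted against Igf2 in each of the 12 libraries, both as log2(TPM + 1), with a dotted line where the levels are equal. UN libraries lie below the line (Igf2 higher), UH libraries above it (H19 higher), and the sorted libraries fall at the low end of both axes.

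Cdkn1c (p57, a maternally expressed inhibitor of cyclin-dependent kinases) lies 791.5 kb beyond Igf2, at chr7:143458339-143461050 (minus strand). Its TPM was 2.13, 6.76 and 7.03 in UN, 1.95, 1.58 and 2.27 in UH, 1.05, 0.889 and 0.973 in SN and 1.06, 1.36 and 0.482 in SH. UN replicate 1 lay within the range of UH, so those groups overlapped, and each sorted group lay below the unsorted group at the same oxygen level.

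Peg3, a paternally expressed zinc finger protein of chr7:6703892-6730431 (minus strand), followed a different course. It was at 86.5, 69.9 and 80.7 TPM in UN, 13.9, 24.8 and 34.2 in UH, 138.6, 119.5 and 112.8 in SN and 31.7, 32.5 and 28.6 in SH. Both hypoxic groups lay below both normoxic groups, and SN was above UN. Peg3 was the member with the highest TPM in sorted cells. Its SN mean was 123.6 ± 13.4 (SD, n = 3), and its SH mean was 31.0 ± 2.06 (SD, n = 3).

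Mest, a paternally expressed gene for a hydrolase-like protein (chr6:30723547-30748465, plus strand), was at 1.77, 2.57 and 3.17 TPM in UN and between 0.387 and 0.829 TPM in the other 9 libraries. UN was therefore the only group that stood apart. Plagl1, which encodes a zinc finger transcription factor (chr10:13060504-13131694, plus strand), did not exceed 0.673 TPM, reached in UH replicate 2.

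**Figure D3:**
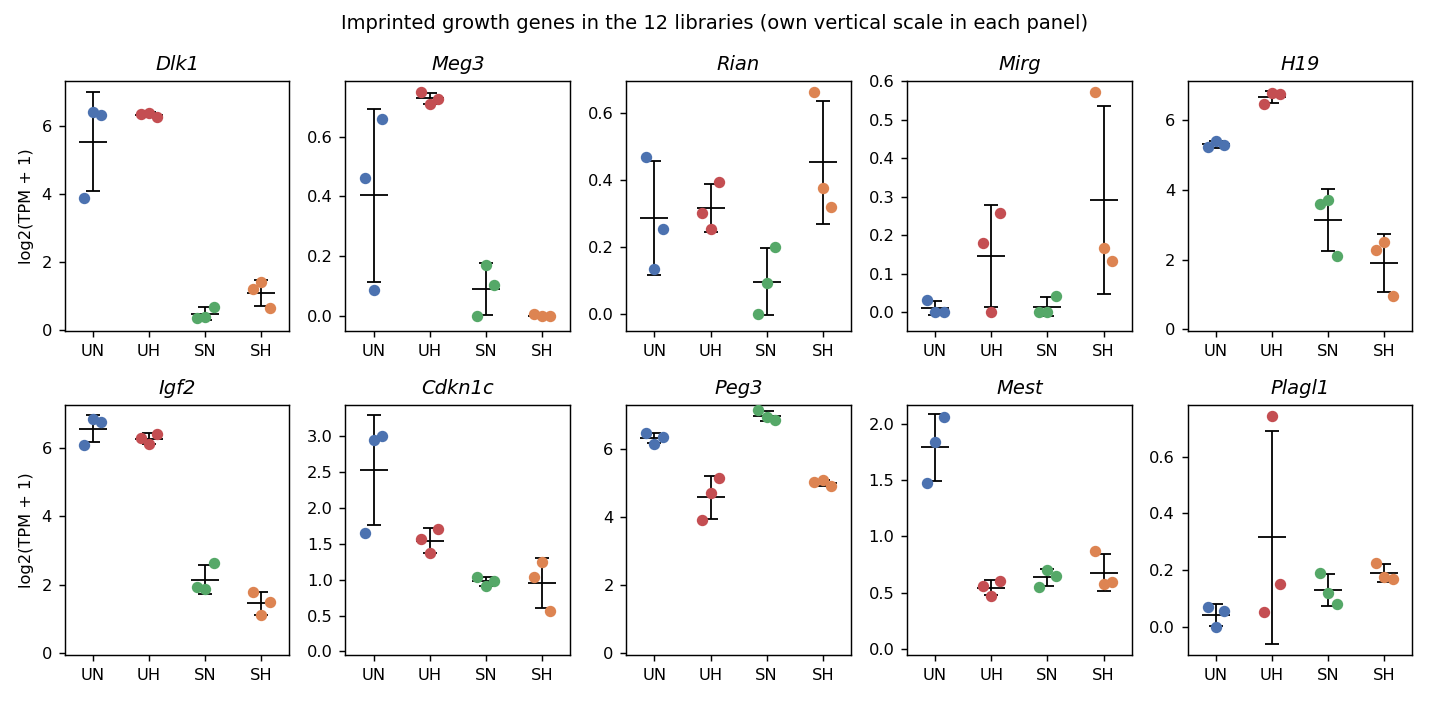
Levels of the 10 members as log2(TPM + 1) in the 3 libraries of each group, with the mean (horizontal mark) and SD, and a vertical scale of its own in each panel. Dlk1, H19 and Igf2 are low in SN and SH, Peg3 is low in UH and SH, Mest is high in UN only, and Meg3, Rian, Mirg and Plagl1 stay under 1 TPM.

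The sorted-unsorted differences had the following sizes in the fit of all libraries. On the log2(TPM + 1) scale, SN was below UN by -5.06 for Dlk1, -4.41 for Igf2, -2.18 for H19, -1.56 for Cdkn1c and -1.15 for Mest, and Peg3 differed by 0.64. These 5 of 9 members were more than 2-fold lower and 0 were more than 2-fold higher, in a comparison where 7.57% of the 18909 genes tested were called lower and 3.2% higher (limma on log2(TPM + 1), Benjamini-Hochberg adjusted p under 0.05 and more than 2-fold). In SH relative to UH the values were -5.25 for Dlk1, -4.81 for Igf2, -4.75 for H19, -0.73 for Meg3 and -0.60 for Cdkn1c. On this scale 3 of 9 members were more than 2-fold lower and 0 higher, where 5.35% of genes were called lower and 7.65% higher. Meg3 was not among the 3, although its mean TPM was 0.656 in UH and 0.00143 in SH without overlap, because the added 1 compresses low levels. Nothing is read from these counts, because Dlk1 and H19 were selected on this contrast.

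The stated rule does not name the response to hypoxia, but Dlk1 and H19 were chosen on their levels in these same groups. Their results with hypoxia below are therefore not independent of that choice. Between UH and UN, 3 of the 9 members were called in unsorted cells. Peg3 and Mest fell and H19 rose. Mean Peg3 TPM was 3.25-fold higher in UN than in UH, a change of -1.74 on the log2(TPM + 1) scale (SE 0.24, limma adjusted p = 0.000101). Mean Mest TPM was 5.42-fold higher in UN than in UH, a change of -1.24 (SE 0.15, limma adjusted p = 4.97e-05). Mean H19 TPM was 2.61-fold higher in UH than in UN, a change of 1.35 (SE 0.43, limma adjusted p = 0.022). Of all genes tested, 5.46% were called higher and 11.8% lower in UH, against 1 and 2 of the 9 members.

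The H19 value was the least stable of these. Its adjusted p was 0.0522 to 0.0628 in the 4 fits that left out UN replicate 1, UN replicate 3, UH replicate 2 or UH replicate 3 and 0.054 with a pseudocount of 0.1, although the change stayed between 1.30 and 1.45 in all 12 such fits. Peg3 and Mest were called in every fit. TPM are shares of a total, and the median of all genes was -0.19 in this comparison. With median-of-ratios scaling, which moves that median to 0 and the genome-wide split from 1032 higher and 2222 lower to 1564 and 1217, H19 changed by 1.71, Peg3 by -1.40 and Mest by -1.06, all still called.

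The other 6 members did not meet the criteria in UH relative to UN. Cdkn1c differed by -0.99 (SE 0.31, limma adjusted p = 0.0223), just short of 1 on the log2(TPM + 1) scale, while its mean TPM was 2.74-fold higher in UN. It was called lower without UN replicate 1 (-1.43, limma adjusted p = 0.000133), without UH replicate 3 (-1.07, adjusted p = 0.0337), with a pseudocount of 0.1 (-1.25, adjusted p = 0.037) and without mitochondrial transcripts (-1.04, adjusted p = 0.0165). Dlk1 differed by 0.80 with a 95% interval from -0.35 to 1.94, and by -0.04 without UN replicate 1, so its value turned on that library. Igf2 differed by -0.29 with an interval from -0.84 to 0.26, and by 0.0643 after median-of-ratios scaling. Meg3 differed by 0.32 (limma adjusted p = 0.0572), Plagl1 by 0.27 and Rian by 0.03.

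In sorted cells Peg3 and H19 were lower in SH than in SN and no member was called higher. Peg3 changed by -1.96 (SE 0.24, limma adjusted p = 6.46e-05), with a mean TPM 3.99-fold higher in SN, and was called in every fit. H19 changed by -1.21 (SE 0.43, limma adjusted p = 0.0405), with a mean TPM 2.78-fold higher in SN. This H19 call was lost in 8 of the 12 fits that left out a library (each UN library, UH replicates 2 and 3, SN replicates 1 and 2 and SH replicate 3), where its adjusted p was 0.0506 to 0.158. It was also lost in a fit of the SN and SH libraries alone (adjusted p = 0.105) and without the filter on low values (adjusted p = 0.0715). Of all genes tested, 7.47% were called higher and 5% lower in SH, against 0 and 2 of the 9 members.

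Igf2 (-0.69, SE 0.25, limma adjusted p = 0.0468) and Rian (0.35, SE 0.12, limma adjusted p = 0.035) had adjusted p under 0.05 but changes under 1 on the log2(TPM + 1) scale, so they were not called. The added 1 compresses changes of such low genes. Mean Rian TPM was 5.23-fold higher in SH than in SN without overlap, and with a pseudocount of 0.1 Rian was called (1.502, limma adjusted p = 0.0209). Dlk1 differed by 0.60 with a 95% interval from -0.54 to 1.75 (limma adjusted p = 0.397, and 0.02 without UN replicate 1), and its mean TPM was 2.95-fold higher in SH with overlapping libraries. Cdkn1c differed by -0.03 (-0.72 to 0.66) and Mest by 0.04 (-0.29 to 0.38). The Mest interval does not reach the value of -1.24 seen in unsorted cells, whereas for Dlk1 the intervals in the 2 populations overlap widely. Meg3 and Plagl1 differed by -0.09 and 0.06. Mean Meg3 TPM was 46.2-fold higher in SN (0.0663) than in SH (0.00143), with overlapping libraries near the bottom of the range. With a pseudocount of 0.1 Meg3 was not called (-0.64, limma adjusted p = 0.345).

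**Figure D4:**
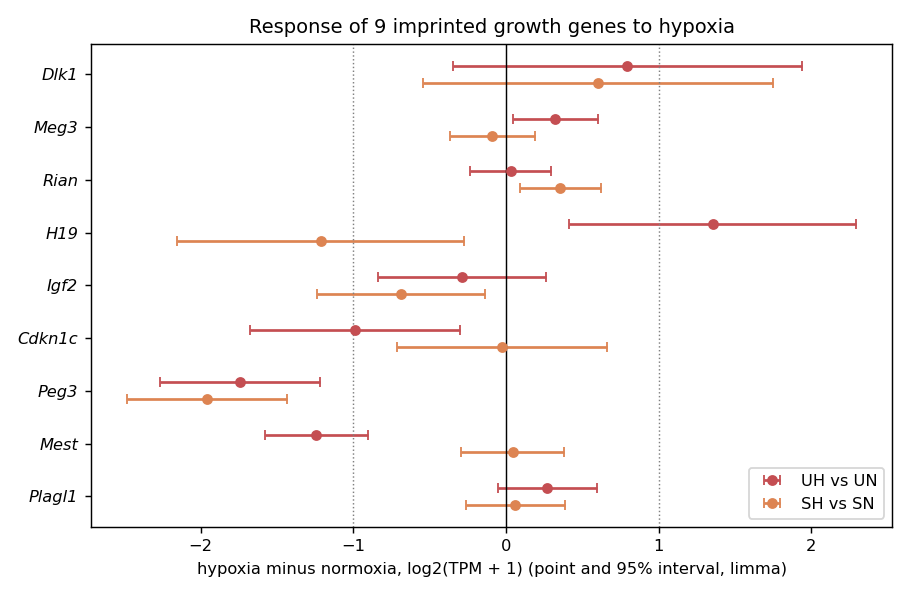
Hypoxia minus normoxia for the 9 members that passed the filter, as a difference of log2(TPM + 1) with its 95% interval from limma, in unsorted (UH vs UN) and sorted (SH vs SN) cells, with dotted lines at 2-fold. Peg3 is low in both, H19 lies on opposite sides of 0, and Mest is low in unsorted cells only.

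Whether the responses differed between the populations was tested as (SH − SN) − (UH − UN). The same value is (SH − UH) − (SN − UN). For Dlk1 and H19 it is thus built from the contrasts they were chosen on, and their p-values are not independent of that choice. H19 differed by -2.57 (SE 0.61, limma adjusted p = 0.012) and Mest by 1.29 (SE 0.22, limma adjusted p = 0.00214). Mest was under 1 TPM in all groups but UN, where log2(TPM + 1) compresses changes. Both genes kept this call in all 18 alternative fits, with adjusted p of 0.00247 to 0.0323 for H19 and 0.00022 to 0.00771 for Mest. These fits reuse the libraries on which H19 was chosen, so they do not lessen that dependence. The difference was called for 10.3% of all genes tested in either direction, against 2 of the 9 members. For Peg3 it was -0.22 with a 95% interval from -0.96 to 0.52. Cdkn1c differed by 0.96 (limma adjusted p = 0.141), and without UN replicate 1 it was called (1.41, limma adjusted p = 0.00238). Dlk1 differed by -0.19 (adjusted p = 0.876) and Igf2 by -0.40 (adjusted p = 0.443).

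Other imprinted genes were taken from a list of 57, of which 56 were in the table and 46 passed the filter. In unsorted cells 4 rose and 6 fell with hypoxia, beside 5.46% and 11.8% of all genes tested. Ascl2, a transcription factor of the trophoblast, rose from at most 0.197 TPM in UN to 9.31, 9.52 and 10.1 TPM in UH (3.28, SE 0.15, limma adjusted p = 4.16e-08). Slc38a4, an amino acid transporter, rose by 1.46 and Ago2, an Argonaute protein of RNA silencing, by 1.37. Dio3 (-3.60), Peg10 (-3.25), a retrotransposon-derived gene of the placenta, and Zim1 (-2.08), a neighbour of Peg3, fell most.

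In sorted cells 3 of the 46 rose and 5 fell, beside 7.47% and 5% of all genes. Dio3 (-2.55, SE 0.27, limma adjusted p = 2.71e-05), Atp10a (-1.74), a lipid flippase, and Zim1 (-1.73) fell most. Airn, the noncoding RNA antisense to Igf2r, rose by 1.29, Ascl2 by 1.25 and Kcnq1, a potassium channel subunit, by 1.09. Kcnq1 was low throughout, with means of 0.0645, 0.00731, 0.0289 and 1.19 TPM in UN, UH, SN and SH. Dio3, Zim1, Atp10a and Peg12 were called lower in both populations, and Ascl2 was called higher in both. The median change of the 46 genes was -0.20 in unsorted and 0.12 in sorted cells, beside -0.19 and 0.03 for all genes tested. The difference of responses was called for 8 of the 46 (17.4%, beside 10.3% of all genes). Peg10 (2.07), Airn (1.24) and Kcnq1 (1.17) led in one direction and Ascl2 (-2.03), Pon3 (-1.35) and Rasgrf1 (-1.02) in the other. Rasgrf1 was also low, with means of 0.00584, 1.11, 0.0101 and 0.0338 TPM in UN, UH, SN and SH.

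In normoxia 7 of the 46 were lower in SN than in UN and 0 were higher, beside 7.57% and 3.2% of all genes. Ndn, which encodes the growth suppressor necdin, was at 43.1, 76.8 and 73.1 TPM in UN and between 0.194 and 0.246 TPM in SN (-5.69, SE 0.20, limma adjusted p = 3.97e-09). Grb10, an adaptor that restrains insulin and IGF receptors, was at 38.5 to 42.4 TPM in UN and 0.0779 to 0.0940 TPM in SN (-5.23, SE 0.17, limma adjusted p = 2.81e-09). Peg10 fell by 2.22. In hypoxia 7 were lower and 2 higher in SH than in UH (beside 5.35% and 7.65% of all genes), led by Grb10 (-5.56), Ndn (-4.92) and Ascl2 (-2.01) on the one side and Kcnq1 (1.12) and Inpp5f (1.02), a phosphoinositide phosphatase, on the other. The median of the 46 was -0.04 in SN relative to UN and 0.14 in SH relative to UH, beside -0.06 and 0.17 for all genes. These 2 comparisons use the same UN and UH libraries as the hypoxia comparison above.

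**Figure D5:**
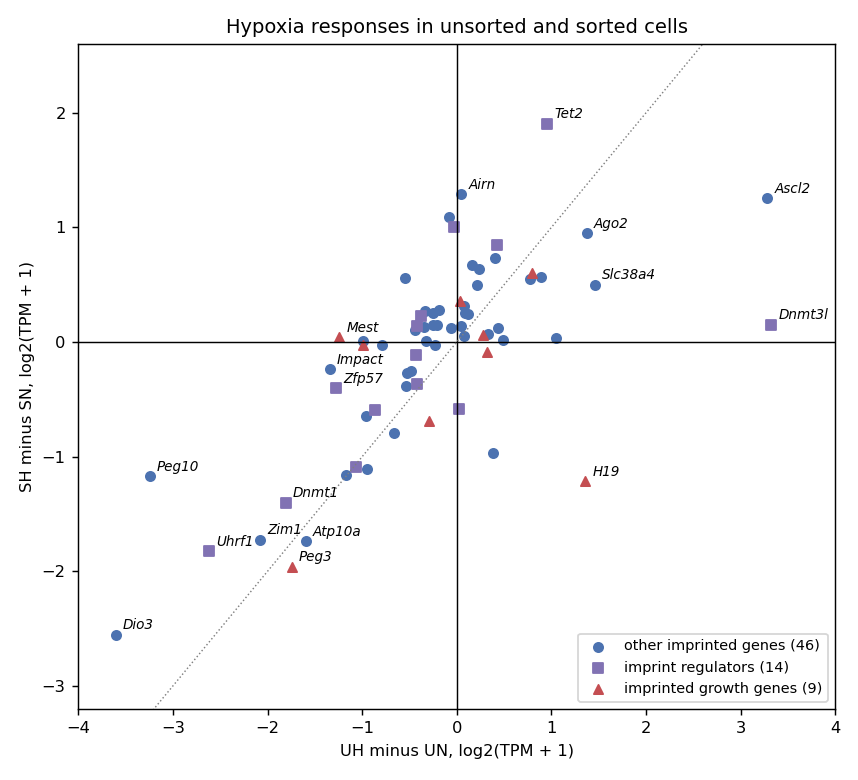
Change with hypoxia in unsorted (UH minus UN, horizontal) and sorted (SH minus SN, vertical) cells, as differences of log2(TPM + 1), for the 9 members, 46 other imprinted genes and 14 imprint regulators, with a dotted line where both are equal and names where either exceeds 1.2. Dio3, Peg3, Zim1, Uhrf1 and Dnmt1 lie at the lower left, and H19 lies at the lower right.

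Proteins that maintain or read imprints were taken from a list of 16, of which 14 passed the filter. In unsorted cells 1 was called higher and 4 lower with hypoxia, beside 5.46% and 11.8% of all genes tested. In sorted cells 2 were called higher and 3 lower, beside 7.47% and 5%. Uhrf1, which brings Dnmt1 to newly replicated DNA, was at 76.4 to 92.2 TPM in UN and 11.9 to 13.2 TPM in UH (-2.62, SE 0.15, limma adjusted p = 1.43e-07). Dnmt1, the maintenance DNA methyltransferase, fell by 1.81, and Zfp57, which binds methylated imprint control regions, fell by 1.28. Ctcf, which binds the control region between H19 and Igf2, changed by -1.06 in UH and was the fourth of the 4 called lower there. It lay nearest to the 2-fold limit, and with median-of-ratios scaling fewer regulators were called in this comparison. Dnmt3l, a cofactor of de novo methylation, was the 1 called higher, from at most 0.642 TPM in UN to between 10.1 and 15.5 TPM in UH (3.33, SE 0.21, limma adjusted p = 3.9e-07). In SH relative to SN, Uhrf1 (-1.83), Dnmt1 (-1.40) and Ctcf (-1.09) were again lower, and Tet2 (1.90), which oxidizes methylcytosine, and Smchd1 (1.01), a chromatin protein, were higher.

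With sorting, 1 of the 14 regulators was called in normoxia and 4 in hypoxia. The shares over all genes tested were 3.2% higher and 7.57% lower in SN relative to UN. In SH relative to UH they were 7.65% and 5.35%. Zfp57 was lower in SN than in UN (-1.45, SE 0.15, limma adjusted p = 2.76e-05), at 10.9 to 13.1 TPM against 31.7 to 38.7, and the other 13 were not called. In SH relative to UH, Dnmt3l was lower (-3.47) and Tet2 (1.45), Smchd1 (1.34) and Uhrf1 (1.30) were higher. The response to hypoxia differed between the populations for 2 of the 14, Dnmt3l (-3.17, SE 0.30, limma adjusted p = 6.91e-05) and Smchd1 (1.03), beside 10.3% of all genes. The median of the 14 regulators was -0.42 in UH relative to UN and -0.24 in SH relative to SN, beside -0.19 and 0.03 for all genes, and 0.10 in SN relative to UN and 0.39 in SH relative to UH, beside -0.06 and 0.17.

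All 6 genes of IGF2 receptors and RNA binders were tested. Igf1r, the signalling receptor, and Igf2r, which clears IGF2 from the cell surface, were not called in any comparison. Igf2bp1, a fetal protein that binds Igf2 mRNA, was at 4.74 to 10.96 TPM in UN and 28.1 to 42.2 TPM in SN (2.18, SE 0.31, limma adjusted p = 0.000275), opposite in direction to Igf2 itself. It fell by 1.40 in SH relative to SN and remained higher in SH than in UH (1.04). Igf2bp2 rose by 1.03 in SN relative to UN, and Igf2bp3 fell by 1.52 in UH relative to UN. Of the 6, 1 was called lower in UH relative to UN, beside 11.8% of all genes, and 1 in SH relative to SN, beside 5%. In SN relative to UN 2 were called higher, beside 3.2%, and in SH relative to UH 1, beside 7.65%. The median of the 6 genes was -0.01 in UH relative to UN and -0.15 in SH relative to SN, beside -0.19 and 0.03 for all genes. It was 0.44 in SN relative to UN and 0.52 in SH relative to UH, beside -0.06 and 0.17.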

How the data were processed

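RNA from 12 libraries of BN1-Tie2-EGFP cells, 3 each of UN, UH, SN and SH, was sequenced after stranded poly(A) library preparation. The authors processed the reads with nf-core/rnaseq 3.12.0 and deposited gene TPM from its Salmon step. The build is mm10 in the submitters' processing notes, and the annotation is not given in the sources used here. Groups were taken from the library labels. Coordinates come from GENCODE M21 (GRCm38), which held 98.8% of the identifiers.

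TPM were transformed as log2(TPM + 1), which understates changes of low genes. The 18909 genes averaging 0.1 TPM or more were fitted with a mean per group in limma 3.58.1 (R 4.3.3), with an empirical Bayes trend and Benjamini-Hochberg adjustment, because the count test of the study needs counts. A gene was called at an adjusted p under 0.05 and a change above 2-fold. Named are all members and, from each list and comparison, at most 3 called genes in each direction with the largest change. For Dlk1 and H19 the 5 genes most like them are also named. Igf1r, Igf2r, Igf2os, Ins2, Peg12, Mkrn3, Mir433 and Ctcf were named after their values were seen. The members and lists were chosen with earlier results of these data known.

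Alternatives were a pseudocount of 0.1, median-of-ratios scaling, a minimum mean of 1 TPM or no filter, rescaling without mitochondrial transcripts, fitting only the compared groups, a replicate block and leaving out each library. Figures and descriptive tables used Python 3.11.15, pandas 2.3.3, numpy 2.4.6 and matplotlib 3.10.9.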

Additional observations from a re-analysis of the deposited data

Results flagged for a closer look

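The response of H19 to hypoxia differed between unsorted and sorted cells by -2.57 on the log2(TPM + 1) scale (SE 0.61, limma adjusted p = 0.012 for the interaction). H19 was chosen on the sorted-unsorted contrasts that make up this difference, so its p-value is not independent of that choice. H19 was higher in 3 of 3 UH libraries than in every UN library, while SN and SH libraries overlapped.

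The response of Mest differed by 1.29 (SE 0.22, limma adjusted p = 0.00214 for the interaction). Mest was lower in 3 of 3 UH libraries than in every UN library, and its SN and SH libraries overlapped. Mest was under 1 TPM in all UH, SN and SH libraries, where log2(TPM + 1) compresses changes, and with a pseudocount of 0.1 the difference was 2.27 (limma adjusted p = 0.00399).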

How the results depend on the processing

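Peg3 and Mest kept their calls in UH relative to UN, and Peg3 in SH relative to SN, under all 19 alternatives. With a pseudocount of 0.1, 0 members were called higher in UH relative to UN and 1 (Rian) in SH relative to SN, 5 members were past 2-fold in SH relative to UH, 13 other imprinted genes were called in SH relative to SN and 11 in SN relative to UN, and 2 imprint regulators in SN relative to UN. In that setting 2854 of 18909 genes were called higher and 1272 lower in SH relative to SN, against 1412 and 945 in the main fit. In SN relative to UN the counts were 990 and 2402, against 606 and 1431. With that pseudocount H19 changed by 1.37 in UH relative to UN (limma adjusted p = 0.054), and the Dlk1 difference of responses turned to 0.48. Without the filter, or with only the SN and SH libraries, 1 member was called lower in SH relative to SN, H19 being lost. With median-of-ratios scaling 3 imprint regulators were called in UH relative to UN, and Igf2 turned to 0.0643. The cause was not tested.

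Leaving out each library gave 0 to 1 members higher and 2 to 3 lower in UH relative to UN, 2 to 3 called in the difference of responses (Cdkn1c added without UN replicate 1), 1 to 2 lower in SH relative to SN and 1 to 2 imprint regulators in SN relative to UN (2 without UN replicate 1 or SN replicate 3). Directions turned for Dlk1 in UH relative to UN (-0.0390 to 1.24) and in the difference of responses (-0.63 to 0.64), Rian in UH relative to UN (-0.0457 to 0.12), the Peg3 difference (-0.55 to 0.0648), Cdkn1c in SH relative to SN (-0.17 to 0.16) and Mest there (-0.0515 to 0.0965), none of them called.

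With the replicate block, 1 member was called higher and 2 lower in UH relative to UN and 2 lower in SH relative to SN, as without it. Residuals of same-numbered libraries had r of -0.116 to 0.141, so the numbers were not treated as pairs. Depth is unknown, and levels under 1 TPM limit what can be said of Meg3, Rian, Mirg and Plagl1.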

Other observations

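The genes whose centred log2(TPM + 1) over the 12 libraries lay closest to that of Dlk1, among 13567 genes with a mean of at least 1 TPM, were Aplp1 (root mean square difference 0.389), Smoc1 (0.491), Postn (0.554), Ptrf (0.637) and Grb10 (0.663). Aplp1, of the amyloid precursor protein family, averaged 56.1, 81.2, 0.228 and 2.54 TPM in UN, UH, SN and SH, and Postn, the matrix protein periostin, 262.2, 290.1, 4.67 and 6.45 TPM. Grb10 is itself imprinted and was on the list of other imprinted genes.

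For H19 the closest genes were Fhl1 (0.548), Mmp3 (0.678), Fam129a (0.716), Cdc42ep5 (0.725) and Sphk1 (0.742). Mmp3, a matrix metalloproteinase, averaged 61.7, 143.6, 14.5 and 7.66 TPM in the same order of groups. Dlk1 and H19 were less like each other (1.31) than Dlk1 and Igf2 (0.829) or H19 and Igf2 (1.08). These values describe 12 libraries in 4 groups and carry no test.

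UN replicate 1 was low for several imprinted genes. Besides Dlk1 and Cdkn1c, 3 of the 46 other imprinted genes (Dio3, Mkrn3 and Peg10) were lower there than in both other UN libraries by more than 1 on the log2(TPM + 1) scale, and 0 were higher by as much, beside 2.14% and 1.97% of all genes tested. Peg10 was at 34.1 TPM in that library and at 134.2 and 149.8 TPM in the other UN libraries. In UN replicate 1 the fibroblast markers summed to 4314 TPM, against 1152 and 1013 TPM in the other UN libraries. The hepatocyte and hepatoblast markers summed to 103.6 TPM there, against 192.5 and 208.8 TPM. The part of either in the low levels was not tested.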
